A study of Mus musculus with 11 samples.

Results

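The miR-181 family is described here through 8 mature miRNAs, which are the 4 5p arms mmu-miR-181a-5p, mmu-miR-181b-5p, mmu-miR-181c-5p and mmu-miR-181d-5p and 4 3p arms, namely mmu-miR-181a-1-3p and its counterpart mmu-miR-181a-2-3p, mmu-miR-181c-3p and mmu-miR-181d-3p (the species prefix mmu is left out of the results). They were chosen by name, with earlier results of these data known. All 8 were found among the 1978 mature names of the deposited table. They fill 10 of its 2128 rows, since a miRNA made from several hairpins has a row for each. The rows of miR-181a-5p on its hairpins held the same values in every library and were kept once, which left 9 rows, and all 9 passed the filter on low counts. Small RNA was sequenced from sorted splenic CD8+ T cells of mice in 4 groups. Dirty_VM (n = 3) and Clean_VM (n = 3) were CD44hi cells, called stamped VM, from dirty and from clean mice. Dirty_TN (n = 3) and Clean_TN (n = 2, replicates 2 and 3) were CD44lo cells, called stamped TN. All 4 groups were sorted as CD4-, CD49dlo and GFP+. VM stands for virtual memory, a memory-like state reached by CD8+ T cells without exposure to foreign antigen, and TN for true naive. The labels give no strain, age or GFP allele and do not define dirty or stamped. Nothing in them says that replicates came from separate animals, so the p-values measure the spread between these libraries, which may be technical.

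MicroRNAs are cut from hairpin precursors as a duplex. The strand that is loaded into an Argonaute protein guides repression of messages that pair with its seed, bases 2 to 8, and its partner, the passenger arm, is mostly degraded. In mouse thymocytes miR-181a is abundant at the double-positive stage and raises sensitivity of the T cell receptor by repressing phosphatases such as Ptpn22 and Dusp6. Its level falls as T cells mature. Mice without the chromosome 1 hairpins make few invariant natural killer T cells.

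The mature sequences show where the arms differ, with the seed in capitals (RefSeq, GRCm38.p6, 5′ to 3′). All 8 names matched. The 5p arms come first.
mmu-miR-181a-5p: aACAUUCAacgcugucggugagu
mmu-miR-181b-5p: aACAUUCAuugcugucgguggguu
mmu-miR-181c-5p: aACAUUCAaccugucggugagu
mmu-miR-181d-5p: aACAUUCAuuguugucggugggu
mmu-miR-181a-1-3p: aCCAUCGAccguugauuguacc
mmu-miR-181a-2-3p: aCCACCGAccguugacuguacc
mmu-miR-181c-3p: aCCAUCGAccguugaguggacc
mmu-miR-181d-3p: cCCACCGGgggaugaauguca
The seed ACAUUCA belonged to these 4 5p arms and to no other of the 1679 mature names in the RefSeq table. Counted from 1 at the 5′ end, miR-181b-5p differs from miR-181a-5p by A9U, C10U and A21G, and miR-181d-5p differs from miR-181b-5p by C12U. Removing G11 from miR-181a-5p gives the sequence of miR-181c-5p. The 3p arms have other seeds. miR-181a-1-3p and miR-181c-3p share the seed CCAUCGA and differ by U16G and U19G, while miR-181a-2-3p differs from miR-181a-1-3p by U5C and U16C, the first of which lies in the seed.

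The 6 hairpins lie in 3 pairs (mm10 coordinates, GENCODE release M21). Mir181a-1 (chr1:137966455-137966541, + strand) and Mir181b-1 (chr1:137966639-137966718, + strand) are 97 bases apart, in an exon of the long non-coding RNA gene A430106G13Rik. Mir181a-2 (chr2:38852735-38852810, + strand) and Mir181b-2 (chr2:38853830-38853918, + strand) are 1019 bases apart, on the strand opposite to Nr6a1 and inside an intron of it. Mir181c (chr8:84178873-84178961, - strand) and Mir181d (chr8:84178716-84178787, - strand) are 85 bases apart, in an intron of Nanos3 on the same strand. The 2 miR-181a hairpins are shown because they yield the same 5p arm and differ in the 3p arm, with both arms in capitals.
Mir181a-1: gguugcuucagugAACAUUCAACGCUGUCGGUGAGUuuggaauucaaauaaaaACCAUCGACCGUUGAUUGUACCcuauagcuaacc
Mir181a-2: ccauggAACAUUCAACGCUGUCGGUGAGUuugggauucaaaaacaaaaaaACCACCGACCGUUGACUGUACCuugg
A read of miR-181a-5p therefore names no chromosome, and the 3p arms are the only reads of these hairpins that do.

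Library totals ran from 2614396 to 16312004 estimated counts, with 5 shallow libraries at 4116012 or less and 6 deep ones at 9399645 or more. A count of 0 allowed up to 0.18 to 1.233 CPM (counts-per-million values on TMM-scaled totals), taking 3 counts as the floor. The floors and the Wilson intervals of shares below cover counting error only. The intervals of log2 changes also include the spread between libraries. The table holds miRNAs, so the sorted surface proteins could not be checked. Lists of miRNAs that mark other cell types were compared between VM and TN cells, averaged over environments, where 23.7% of the 545 tested rows were called and 12.3% were called lower. Of 3 erythroid miRNAs 2 were tested and 1 was higher in VM cells, and their summed level was 61.2 to 135.8 CPM in VM and 34.9 to 75.9 CPM in TN libraries. The endothelial and platelet list had 1 of 2 higher, both tested, at 21.7 to 53.0 CPM in VM and 15.3 to 29.7 CPM in TN libraries. The stromal list had 1 of 4 higher, all tested, at 67.4 to 129.7 CPM in VM and 46.9 to 85.2 CPM in TN libraries. The epithelial list had 2 of 5 higher, all tested, at 1495 to 2199 CPM in VM and 1232 to 1780 CPM in TN libraries, and the hepatocyte miRNA was higher, at 1215 to 2738 CPM in VM and 850.6 to 1822 CPM in TN libraries. Of the 2 myeloid miRNAs 1 was tested and was not called, and the pair summed to 0.268 to 3.61 CPM in VM and 0.9 to 2.6 CPM in TN libraries. The 4 lymphocyte and haematopoietic miRNAs summed to 83603 to 110197 CPM in VM and 73923 to 145534 CPM in TN libraries, all were tested, and 1 was lower in VM cells. No listed marker was at 0 in every library. The part of these other cell types in the results below was not tested.

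VM cells held less of the miR-181 arms from the chromosome 1 and chromosome 2 hairpins than TN cells did, in dirty and in clean mice alike. The arms from the chromosome 8 hairpins did not pass the test in either environment. In dirty mice 5 of the 9 rows were lower in VM cells and 0 were higher, where 5.87% of the 545 tested rows were called lower and 12.1% were called in either direction. In clean mice 5 of the 9 rows were lower and 0 were higher, against 7.71% lower and 17.4% in either direction among all rows. The 5 rows were the same in both environments, namely miR-181a-5p, both 3p arms of its hairpins and both rows of miR-181b-5p. Averaged over environments the same 5 were lower, against 12.3% of all rows. The median log2 change of VM over TN was -1.13 in dirty and -1.46 in clean mice over the 9 rows, against 0.02 and 0.08 over all rows. Rows sharing reads or a hairpin are not independent. The members were chosen with earlier results of these data known, so the shares of all rows are a description and no test. In sorted bulk samples, fewer cells carrying a miRNA and less of it per cell cannot be told apart. A row was called at an adjusted p under 0.05 in edgeR's quasi-likelihood test (two-sided, Benjamini-Hochberg over 545 rows), the test behind each adjusted p below unless another is named.

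**Figure D1:**
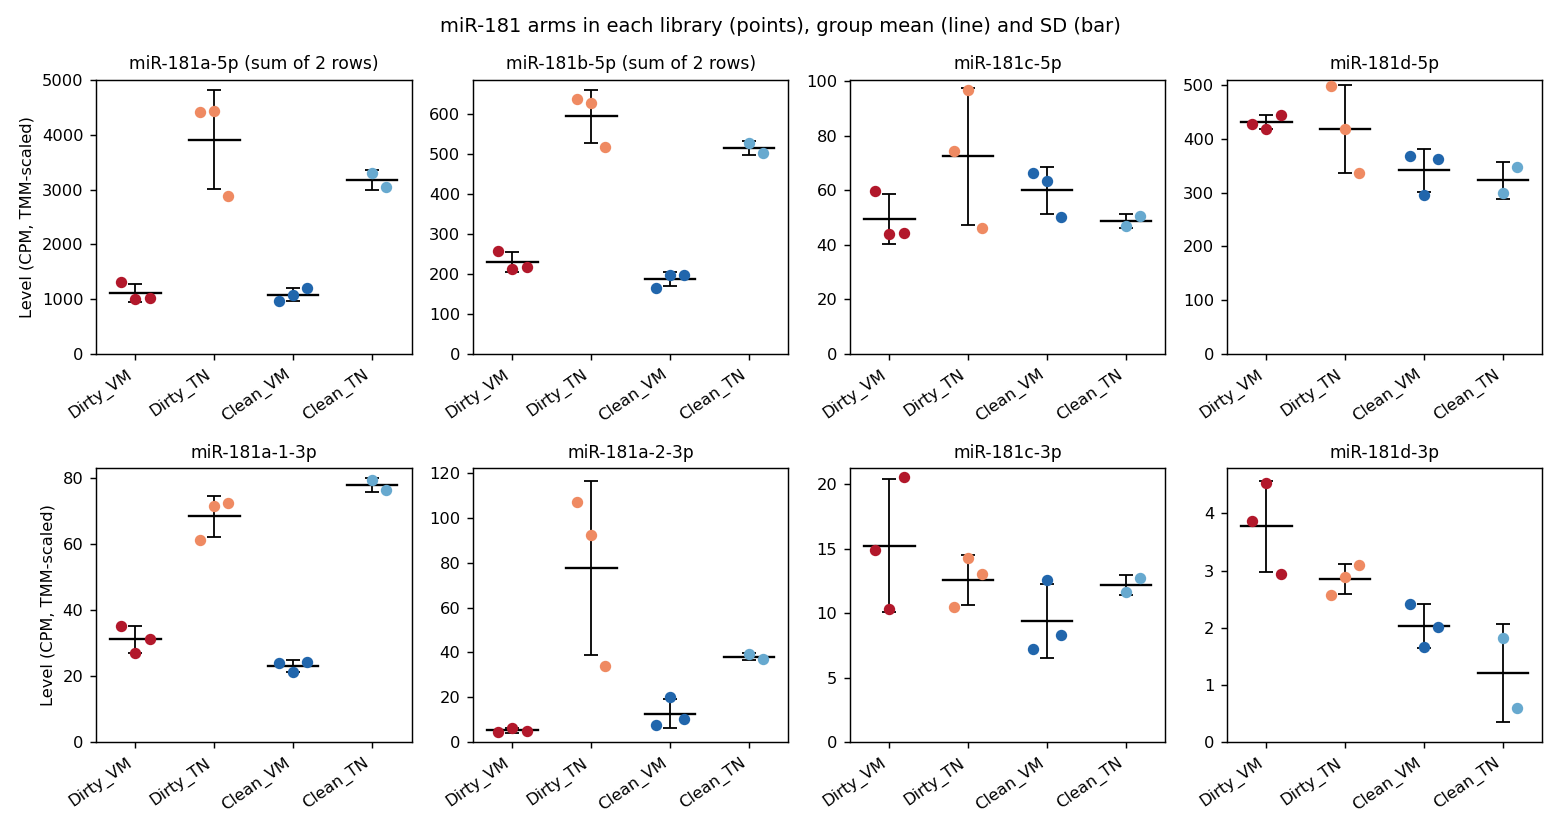
Level of each arm in CPM on TMM-scaled totals (linear axes from 0) in the 11 libraries, with points for libraries, lines for group means and bars for SD. For the 5p and 3p arms of miR-181a and for miR-181b-5p all VM points lie below the TN points of the same environment, while the arms of chromosome 8 overlap.

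miR-181a-5p was the most abundant arm in every group. Both of its hairpin rows hold the same values, and the levels here are their sum. It had 1305, 1005 and 1026 CPM in the 3 Dirty_VM libraries, against 4425, 4446 and 2878 CPM in Dirty_TN. In clean mice it had 963.4, 1078 and 1194 CPM in Clean_VM, against 3309 and 3052 CPM in Clean_TN. All 5 rows had VM libraries below TN libraries without overlap, as 13.6% of all rows did in dirty mice, 23.7% in clean mice and 8.81% in both. For miR-181a-5p the lowest Dirty_TN library still held more than any VM library. The log2 change of VM over TN was -1.82 ± 0.21 (SE, adjusted p = 1.2e-04, 3.52-fold lower) in dirty mice. It was -1.56 ± 0.22 (SE, adjusted p = 4.6e-04, 2.95-fold lower) in clean mice. The change in dirty mice minus that in clean mice was -0.26 ± 0.3 (SE, 95% interval -0.91 to 0.4, adjusted p = 0.728).

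miR-181b-5p, which has the same seed and is made from the hairpins next to those of miR-181a, was also lower in VM cells. Its rows summed to 257.1, 213.2 and 217.5 CPM in Dirty_VM, against 637.7, 628.1 and 518.5 CPM in Dirty_TN. In clean mice the sum was 165.5, 197.7 and 197.1 CPM in Clean_VM, against 526.5 and 503.3 CPM in Clean_TN. Here too no VM library reached the lowest TN library. The row of mir-181b-1 had log2 changes of -1.39 ± 0.18 (SE, adjusted p = 2.2e-04) in dirty and -1.46 ± 0.2 (adjusted p = 2.7e-04) in clean mice. The row of mir-181b-2 had -1.36 ± 0.18 (adjusted p = 2.4e-04) and -1.46 ± 0.19 (adjusted p = 2.7e-04). These rows carry the same mature sequence and nearly the same counts, so they count as a single observation and do not tell the chromosomes apart.

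The 3p arms that do tell them apart were both lower in VM cells. miR-181a-1-3p, from chromosome 1, had 35.1, 27.1 and 31.4 CPM in Dirty_VM, against 61.2, 71.5 and 72.5 CPM in Dirty_TN. In clean mice it had 24.0, 21.2 and 24.4 CPM in Clean_VM, against 79.4 and 76.5 CPM in Clean_TN. Its libraries lay close together within each group and did not overlap between VM and TN. The log2 change was -1.13 ± 0.19 (SE, adjusted p = 0.0017, 2.19-fold lower) in dirty mice and -1.75 ± 0.21 (adjusted p = 1.1e-04, 3.36-fold lower) in clean mice.

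miR-181a-2-3p, from chromosome 2, had 4.46, 6.57 and 5.26 CPM in Dirty_VM, against 106.9, 92.2 and 33.8 CPM in Dirty_TN. In clean mice it had 7.92, 20.1 and 10.3 CPM in Clean_VM, against 39.4 and 37.0 CPM in Clean_TN. All VM libraries were below all TN libraries, but Dirty_TN replicate 3 stood at the Clean_TN level, apart from the other Dirty_TN libraries, and Clean_VM replicate 2 stood above the other Clean_VM libraries. The log2 change in dirty mice, -3.84 ± 0.46 (SE, adjusted p = 1.3e-04, 14.4-fold lower), ranked 1 from the most negative among the 545 rows. Without Dirty_TN replicate 3 it was -4.21. In clean mice the log2 change was -1.56 ± 0.44 (adjusted p = 0.0299, 2.94-fold lower). This call was lost without any 1 of Clean_TN replicate 2, Clean_TN replicate 3, Clean_VM replicate 1 or Clean_VM replicate 3, at adjusted p = 0.148, 0.124, 0.0687 and 0.102. The log2 changes without these libraries were -1.51, -1.6, -1.29 and -1.44. Leaving out Clean_VM replicate 2 moved the clean value most, to -2.04, and the call held (adjusted p = 0.0108 in edgeR). Counts behind the VM values were small, at 15.0, 16.0 and 87.5 in Dirty_VM and 29.5, 206.0 and 103.0 in Clean_VM.

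The 5 rows kept their direction within depth classes. Among the shallow libraries (a single library in each group but Dirty_VM) the mean log2 difference of VM from TN over both environments was -1.81 for miR-181a-5p, -1.44 for miR-181a-1-3p and -3.13 for miR-181a-2-3p. Among the deep libraries (a single library in Clean_TN and in Dirty_VM) it was -1.67, -1.44 and -2.47 for the same arms. For the mir-181b-1 row of miR-181b-5p it was -1.52 in shallow and -1.42 in deep libraries. No test was run within classes.

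**Figure D2:**
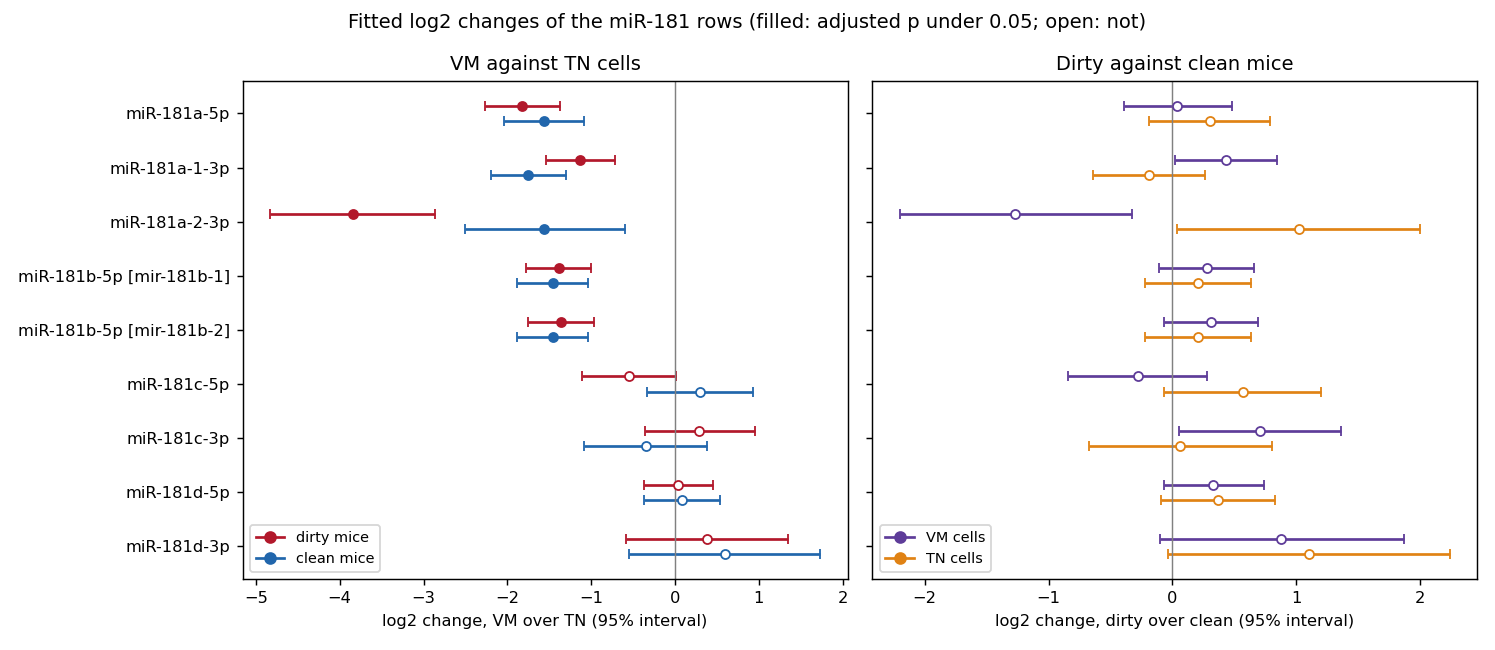
Fitted log2 changes of the 9 rows with 95% intervals, VM over TN in dirty and clean mice (left) and dirty over clean mice in VM and TN cells (right), filled where the adjusted p was under 0.05. The filled points are 5 rows on the left in each environment, from -3.84 to -1.13, and none on the right.

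The opposite arms of the miR-181b hairpins are outside the 8 names and were looked up after their values were seen. miR-181b-1-3p, from chromosome 1, had 1.49, 0.822 and 0.721 CPM in Dirty_VM, against 4.11, 4.47 and 2.36 CPM in Dirty_TN. It had 0.805, 0.683 and 0.301 CPM in Clean_VM, against 2.82 and 5.42 CPM in Clean_TN. Its log2 change was -1.9 ± 0.57 (SE, adjusted p = 0.0463) in dirty and -2.79 ± 0.62 (adjusted p = 0.00905) in clean mice. miR-181b-2-3p, from chromosome 2, did not pass the filter on low counts. It was at 0.0 to 0.18 CPM in Dirty_VM, 0.731 to 1.16 CPM in Dirty_TN, 0.0 CPM in Clean_VM and 0.0 to 0.273 CPM in Clean_TN, near the floor.

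The chromosome 8 arms did not pass between VM and TN cells. miR-181d-5p, which shares the family seed, had 428.2, 419.6 and 445.0 CPM in Dirty_VM, against 499.5, 419.6 and 337.2 CPM in Dirty_TN. In clean mice it had 368.0, 295.6 and 362.1 CPM in Clean_VM, against 299.0 and 347.5 CPM in Clean_TN. The ranges overlapped in both environments. Counts of this arm were not all whole (1153.67 in Clean_TN replicate 3), although it has a single hairpin row. Reads may therefore have been divided between it and other names, such as miR-181b-5p, which was not tested. The log2 change was 0.04 (95% interval -0.37 to 0.45) in dirty and 0.08 (-0.37 to 0.54) in clean mice, so changes of the size fitted for miR-181a-5p and miR-181b-5p lay outside the intervals. Scaling by library totals moved the median of all rows in clean mice to -0.13 (0.08 with TMM) and turned the clean value of miR-181d-5p to -0.14, which did not pass.

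miR-181c-5p, the rarest of the 5p arms, had 59.8, 44.0 and 44.3 CPM in Dirty_VM, against 74.3, 96.6 and 46.2 CPM in Dirty_TN. In clean mice it had 66.3, 63.4 and 50.0 CPM in Clean_VM, against 46.9 and 50.6 CPM in Clean_TN. The groups overlapped in both environments. Its log2 change was -0.55 (95% interval -1.11 to 0.01, adjusted p = 0.204) in dirty and 0.3 (-0.33 to 0.93, adjusted p = 0.505) in clean mice. Without Dirty_TN replicate 3 the dirty value was -0.79 and passed (adjusted p = 0.0285). The 3p arms of these hairpins were rarer still. miR-181c-3p had 14.9, 10.3 and 20.5 CPM in Dirty_VM, against 10.5, 14.3 and 13.0 CPM in Dirty_TN, and its log2 change of 0.29 (-0.36 to 0.95) did not pass. It had 7.25, 12.6 and 8.32 CPM in Clean_VM, against 11.6 and 12.7 CPM in Clean_TN, and the log2 change of -0.35 (-1.08 to 0.38) did not pass either. miR-181d-3p had 2.94 to 4.52 CPM in Dirty_VM and 2.57 to 3.09 CPM in Dirty_TN, and 1.66 to 2.42 CPM in Clean_VM and 0.602 to 1.82 CPM in Clean_TN, with 2.0 to 49.0 counts a library. Its log2 changes of 0.38 (-0.59 to 1.35) in dirty and 0.59 (-0.55 to 1.73) in clean mice leave a wide range of changes undetectable at this depth. The clean value was 1.7 without Clean_TN replicate 2 and 0.13 without Clean_TN replicate 3, and neither passed.

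With the hairpin rows of each miRNA summed, the order of the arms by level differed between VM and TN groups. Mature miRNAs here are 21 to 24 bases long, and CPM values were not divided by length. In Dirty_VM and Clean_VM miR-181d-5p was the second arm after miR-181a-5p, at 430.9 ± 12.9 CPM (SD, n = 3) and 341.9 ± 40.2 CPM (n = 3), above miR-181b-5p at 229.3 ± 24.2 CPM and 186.8 ± 18.4 CPM. In Dirty_TN and Clean_TN miR-181b-5p was the second, at 594.8 ± 66.2 CPM (n = 3) and 514.9 ± 16.4 CPM (n = 2), above miR-181d-5p at 418.8 ± 81.1 CPM and 323.3 ± 34.3 CPM. The library ranges of these arms did not overlap in any group. The place of miR-181b-5p in TN groups rests on summing its rows. Singly they averaged 291.3 and 303.5 CPM in Dirty_TN and 252.3 and 262.5 CPM in Clean_TN, below miR-181d-5p. Among the lower arms, miR-181a-2-3p and miR-181d-3p overlapped in Dirty_VM, miR-181a-2-3p and miR-181c-3p in Clean_VM, and miR-181a-2-3p, miR-181c-5p and miR-181a-1-3p in Dirty_TN. All other neighbours in the order were separate.

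Together the 5p arms, which share the seed, summed to 1821 ± 199.4 CPM (SD, n = 3) in Dirty_VM and 5002 ± 1059 CPM (n = 3) in Dirty_TN. They summed to 1667 ± 123.3 CPM (n = 3) in Clean_VM and 4067 ± 161.1 CPM (n = 2) in Clean_TN. The lowest TN library, Dirty_TN replicate 3 at 3780 CPM, was above the highest VM library, at 2050 CPM. miR-181a-5p made up 60.9% ± 2.42 of this sum in Dirty_VM, 78.1% ± 1.74 in Dirty_TN, 64.6% ± 2.57 in Clean_VM and 78.2% ± 1.37 in Clean_TN. miR-181d-5p made up 23.8% ± 2.58 in Dirty_VM, 8.43% ± 0.801 in Dirty_TN, 20.6% ± 2.76 in Clean_VM and 7.97% ± 1.16 in Clean_TN. The miR-181d-5p share was larger in all VM than in all TN libraries although its own level did not pass the test, and miR-181b-5p kept a share of 10.6 to 13.7% in all libraries. The share of miR-181c-5p was 2.56 to 2.92% in Dirty_VM, 1.22 to 1.73% in Dirty_TN, 2.78 to 4.24% in Clean_VM and 1.12 to 1.28% in Clean_TN.

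**Figure D3:**
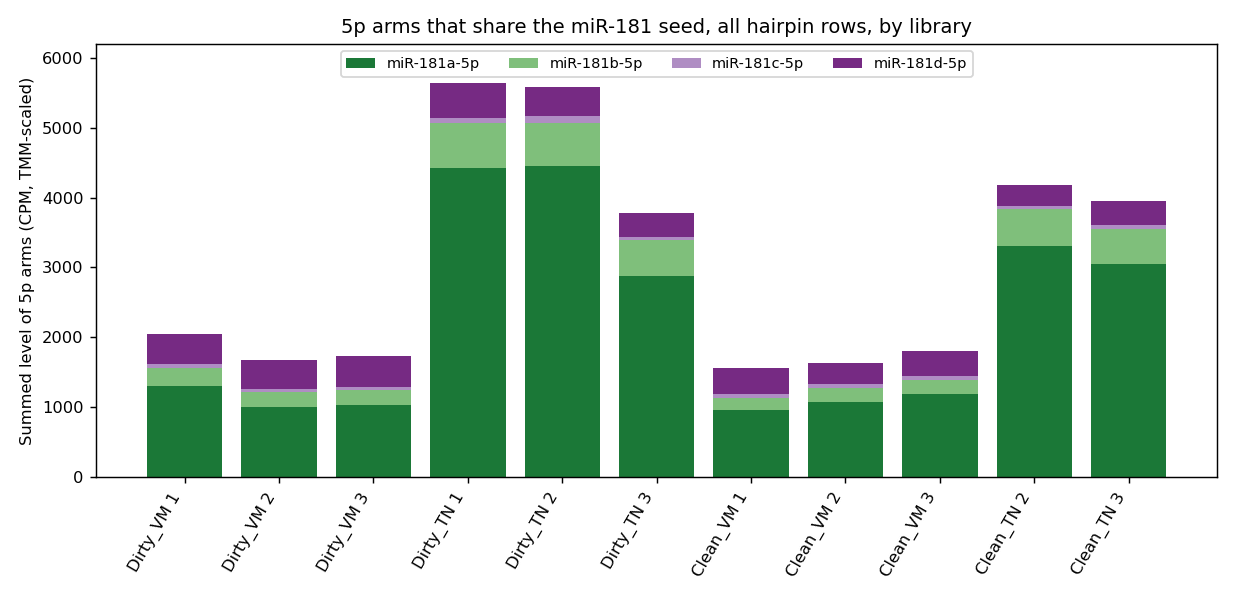
Summed level of the 5p arms in each library, in CPM on TMM-scaled totals from 0, stacked by arm, with all hairpin rows included. VM columns reach 1563 to 2050 CPM and TN columns 3780 to 5636 CPM, and the miR-181d-5p segment (top) is of similar height in all.

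Ratios between arms of the same library do not depend on scaling between libraries. The ratio of miR-181a-5p (its row kept once) plus miR-181b-5p to miR-181c-5p plus miR-181d-5p was, on the log2 scale, 0.701 ± 0.172 (SD, n = 3) in Dirty_VM and 2.377 ± 0.079 (n = 3) in Dirty_TN. It was 0.853 ± 0.244 (n = 3) in Clean_VM and 2.503 ± 0.217 (n = 2) in Clean_TN. Libraries did not overlap in either environment. No p is given for this ratio, since its parts were chosen with the results known. The log2 ratio of miR-181a-5p to miR-181b-5p also takes the miR-181a-5p row once and so lies below the ratio of the summed levels, by the same amount in every library. It was 1.272 ± 0.061 in Dirty_VM and 1.697 ± 0.195 in Dirty_TN, and 1.529 ± 0.077 in Clean_VM and 1.626 ± 0.037 in Clean_TN. VM libraries were lower without overlap in both environments, but barely so in clean mice. There Clean_VM replicate 3 was at 1.599 and Clean_TN replicate 3 at 1.6. VM minus TN was -0.4245 in dirty mice (exact permutation test, two-sided, p = 0.1) and -0.0972 in clean mice (p = 0.2). The mean difference was -0.261 (exact permutation test within environments, two-sided, p = 0.01, adjusted p = 0.025 over the 5 ratios computed and 0.04 over the 4 without the ratio of sums). The smallest p that the 200 arrangements allow is 0.005. Leaving out some libraries took the call away with differences of -0.279 to -0.248. The exact permutation test's p adjusted over the 4 ratios was 0.0667 without Clean_VM replicate 1 or 3. It was 0.12 to 0.16 without any 1 Dirty_VM library. The differences were -0.248 and -0.274 without Clean_TN replicates 2 and 3, which leave 1 library in that group. Fewer arrangements remain without a library, so the smallest p possible is larger than 0.005. Without a Clean_TN or Clean_VM library this ratio could not pass over 4 ratios unless another ratio also had a small p. Those lost calls therefore do not show that the result depends on these libraries.

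The 3p arms of the miR-181a hairpins differed in their share between VM and TN libraries of dirty mice, but the test of their ratio did not pass. As a share of their summed counts, miR-181a-2-3p made up 11.28%, 19.51% and 14.43% in Dirty_VM replicates 1, 2 and 3 (Wilson 95% intervals 6.95 to 17.78%, 12.38 to 29.37% and 11.86 to 17.44%). It made up 63.61%, 56.34% and 31.8% in Dirty_TN replicates 1, 2 and 3 (60.96 to 66.17%, 52.23 to 60.36% and 29.34 to 34.38%). All Dirty_VM libraries lay below all Dirty_TN libraries, and Dirty_TN replicate 3 lay apart from its group beyond counting error. In clean mice the share was 25.0%, 48.7% and 29.77% in Clean_VM replicates 1, 2 and 3 (18.11 to 33.44%, 43.97 to 53.45% and 25.19 to 34.79%). It was 33.13% and 32.63% in Clean_TN replicates 2 and 3 (30.63 to 35.73% and 28.09 to 37.51%). The Clean_VM libraries spread to both sides of the Clean_TN libraries.

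The log2 ratio of miR-181a-1-3p to miR-181a-2-3p was 2.505 ± 0.465 (SD, n = 3) in Dirty_VM and -0.024 ± 0.997 (n = 3) in Dirty_TN. It was 0.965 ± 0.79 (n = 3) in Clean_VM and 1.027 ± 0.023 (n = 2) in Clean_TN. VM minus TN was 2.53 in dirty mice (exact permutation test, two-sided, p = 0.1, the smallest that 3 against 3 allows) and -0.06 in clean mice (p = 1.0). The mean of both was 1.23 (exact permutation test within environments, p = 0.075, adjusted p = 0.125 over 5 ratios and 0.15 over 4), which did not pass. Without Clean_VM replicate 2 it was 1.46 and passed (exact permutation test, adjusted p = 0.0278 over 5 ratios and 0.0333 over 4). On chromosome 8, the log2 ratio of miR-181c-3p to miR-181c-5p differed between VM and TN by 0.021 on average (exact permutation test, adjusted p = 0.925), with 0.733 in dirty and -0.692 in clean mice. For miR-181d-3p to miR-181d-5p the mean difference was 0.531 (exact permutation test, adjusted p = 0.144 over 5 ratios and 0.1533 over 4).

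**Figure D4:**
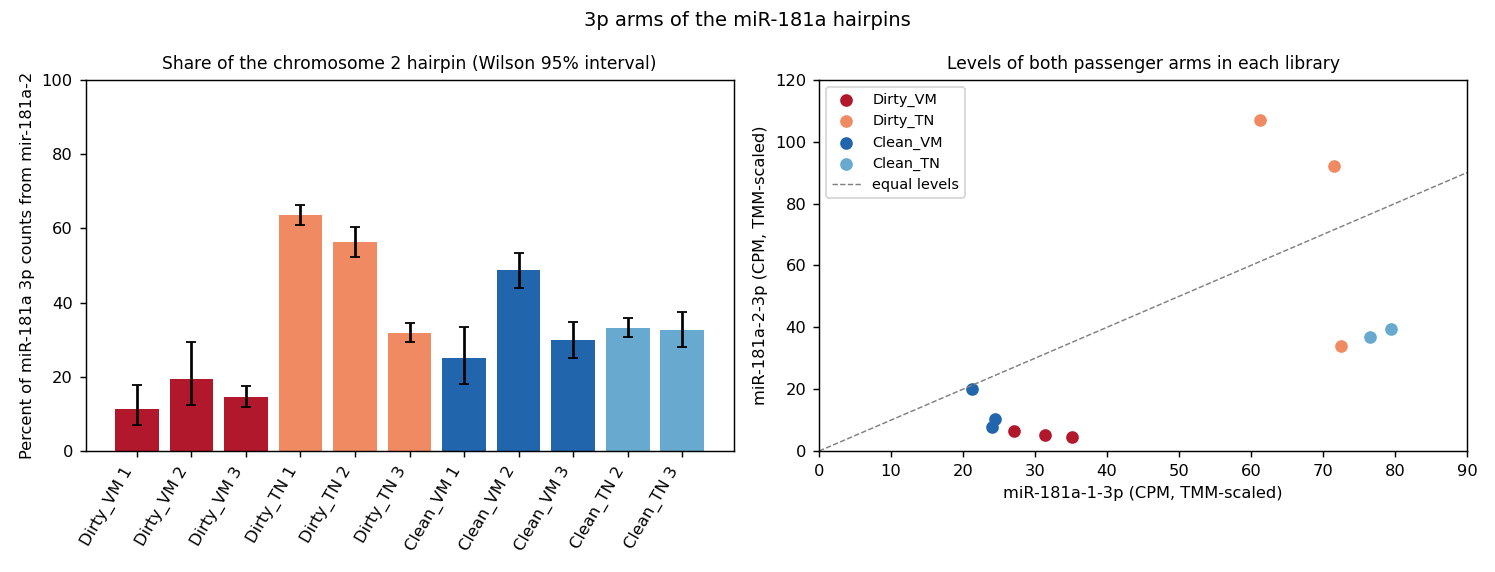
The miR-181a 3p arms in each library. Left, percent of their summed counts that came from the chromosome 2 hairpin, with Wilson 95% intervals, 11.28 to 19.51% in Dirty_VM and 31.8 to 63.61% in Dirty_TN. Right, levels of both arms in CPM, where points above the dashed line had more miR-181a-2-3p than miR-181a-1-3p, as Dirty_TN replicates 1 and 2 did.

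Between dirty and clean mice no miR-181 row passed. In TN cells 0 of the 9 rows were called in edgeR, with 1 at an unadjusted p under 0.05 and 0 called in DESeq2. In VM cells 0 of the 9 were called, with 3 at an unadjusted p under 0.05 and 1 called in DESeq2. For the difference of the VM minus TN changes between environments, the interaction, 0 were called, with 2 at an unadjusted p under 0.05 and 1 called in DESeq2. Over all 545 rows 0.0% were called by edgeR in each of these comparisons, and 6.97%, 14.9% and 17.1% had an unadjusted p under 0.05. DESeq2 called 0.55%, 3.49% and 7.52%. These comparisons share their groups with those above.

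miR-181a-2-3p was the arm with the smallest unadjusted p in each of them. In TN cells it averaged 77.6 ± 38.7 CPM (SD, n = 3) in Dirty_TN and 38.2 ± 1.65 CPM (n = 2) in Clean_TN, with a log2 change of dirty over clean of 1.02 ± 0.45 (SE, adjusted p = 0.559). In VM cells it averaged 5.43 ± 1.07 CPM in Dirty_VM and 12.8 ± 6.44 CPM in Clean_VM (n = 3 each), with a log2 change of -1.27 ± 0.43 (adjusted p = 0.201). The TN libraries overlapped, and all Dirty_VM libraries were below all Clean_VM libraries. The interaction was -2.29 ± 0.63 (SE, 95% interval -3.65 to -0.93, adjusted p = 0.102). This arm was the DESeq2 call in VM cells (log2 change -1.33, adjusted p = 0.0449) and in the interaction (-2.26, adjusted p = 0.00643). Without Dirty_TN replicate 3 edgeR called it in TN cells (1.38, adjusted p = 0.0434), in VM cells (-1.27, adjusted p = 0.046) and in the interaction (-2.65, adjusted p = 0.0034). The share of all rows called without that library is not given here, and miR-181c-5p was also called in its interaction (-1.09, adjusted p = 0.049 in edgeR). Over all alternatives the interaction of miR-181a-2-3p ran from -2.65 to -1.84 and its adjusted p from 1.8e-04 to 0.375.

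miR-181a-1-3p, the arm from chromosome 1, went the other way in each subset. Dirty_TN libraries, at 61.2 to 72.5 CPM, were all below Clean_TN, at 76.5 and 79.4 CPM (log2 change -0.19 ± 0.21, adjusted p = 0.82). Dirty_VM libraries, at 27.1 to 35.1 CPM, were all above Clean_VM, at 21.2 to 24.4 CPM (0.43 ± 0.19, adjusted p = 0.311). The interaction was 0.62 ± 0.28 (adjusted p = 0.278) and did not pass. In VM cells miR-181d-5p and both miR-181b-5p rows also had all Dirty_VM libraries above all Clean_VM libraries, with log2 changes of 0.33 ± 0.19, 0.28 ± 0.18 and 0.31 ± 0.18 that did not pass. miR-181d-3p was above without overlap in both subsets, with log2 changes of 1.1 ± 0.53 in TN and 0.88 ± 0.46 in VM cells that did not pass. The TN value rests on 20.0 and 2.0 counts in Clean_TN, and was 2.21 without Clean_TN replicate 2 and 0.64 without Clean_TN replicate 3. Groups were separate without overlap in either direction for 23.3% of all rows in TN and 20.9% in VM cells. miR-181a-5p changed by 0.3 (95% interval -0.19 to 0.79) in TN and 0.04 (-0.39 to 0.48) in VM cells, and miR-181c-5p by 0.57 (-0.07 to 1.2) and -0.28 (-0.84 to 0.28). miR-181c-3p changed by 0.06 (-0.67 to 0.8) in TN and 0.71 (0.05 to 1.36, adjusted p = 0.305) in VM cells.

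Levels of the other arms followed those of miR-181a-5p unequally. Over the 11 libraries, which include the 4 groups, Pearson's r of log2 CPM with miR-181a-5p was 0.988 and 0.986 for the miR-181b-5p rows, 0.931 for miR-181a-1-3p and 0.918 for miR-181a-2-3p. It was 0.387 for miR-181c-5p, 0.143 for miR-181c-3p, 0.067 for miR-181d-5p and -0.266 for miR-181d-3p. Among 255 rows at 10 CPM or more on average, the highest r outside the family was that of miR-99b-5p (0.967), followed by miR-125a-5p (0.958), miR-132-3p (0.913) and miR-211-5p (0.896). miR-99b-5p had 66.2 ± 7.73 CPM in Dirty_VM, 249.1 ± 84.6 CPM in Dirty_TN, 72.5 ± 14.6 CPM in Clean_VM and 183.4 ± 12.3 CPM in Clean_TN. The lowest r was that of miR-139-5p (-0.965), followed by miR-149-5p (-0.951), miR-222-3p (-0.932) and miR-504-5p (-0.917). miR-139-5p had 10292 ± 1247 CPM in Dirty_VM, 2876 ± 21.5 CPM in Dirty_TN, 9446 ± 1164 CPM in Clean_VM and 3035 ± 71.8 CPM in Clean_TN. These values describe the same libraries, in which VM and TN cells form separate clusters, and carry no test.

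Other miRNAs of T cell receptor signalling, activation and memory moved in both directions between VM and TN cells. The list was drawn up with earlier results of these data known. Of 20 listed, all tested, 7 were higher and 5 lower averaged over environments, where 23.7% of all rows were called, and the median log2 change was 0.09 for the list and 0.09 for all rows. The higher ones included miR-21a-5p, induced on T cell activation, by 1.88 ± 0.13 (SE), and miR-146a-5p, which restrains NF-kB signalling through Traf6 and Irak1, by 1.06 ± 0.16. miR-155-5p, which supports effector responses, was higher by 0.6 ± 0.15, miR-31-5p by 1.45 ± 0.35, miR-182-5p by 0.91 ± 0.23, miR-130b-3p by 0.64 ± 0.17 and miR-92a-3p (row mir-92a-1) by 0.42 ± 0.13. The lower ones had log2 changes of -1.36 ± 0.17 for miR-132-3p, -0.73 ± 0.15 for miR-23a-3p, -0.62 ± 0.12 for miR-24-3p, -0.59 ± 0.12 for miR-27a-3p and -0.71 ± 0.24 for miR-19b-3p (row mir-19b-2). miR-150-5p, which represses Myb, had -0.37 ± 0.16 and did not pass (adjusted p = 0.136). In dirty mice 2 of the 20 were higher and 2 lower, where 12.1% of all rows were called, and in clean mice 7 were higher and 4 lower, where 17.4% were. No listed miRNA was called between dirty and clean mice or in the interaction, where edgeR called 0 of all rows.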

How the data were processed

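The data are small RNA sequencing counts of mature miRNAs from 11 libraries of CD8+ T cells sorted from mouse spleen. CD8a microbeads were used before sorting per the labels' protocols, 10000 cells went into Trizol, purity was over 95%, and libraries took 60 to 100 ng of RNA with inserts of 18 to 35 bp. The authors deposited estimated counts (expected counts, 88.65% of them whole within 0.001) per mature miRNA and hairpin. The build is mm10 per the submitters' processing notes, and the aligner and counting program are not given in the sources used here. Of the values of 10 or more, 68.13% were not whole for miRNAs on 2 identical rows and 22.21% for miRNAs on 1 row, so reads that match several hairpins may have been divided among them. The miR-181a-5p levels are therefore sums of both rows. If reads were not divided, the sums for miR-181a-5p and miR-181b-5p count such reads again. Fold changes of a row are the same either way, but the summed levels, the shares and the order of the arms are not.

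Rows with the same name and values were kept once (120 removed, 2008 left, 0.889% of counts), and counts were rounded. filterByExpr kept 545 rows of 524 names. A single quasi-likelihood model with TMM scaling was fitted to all libraries in edgeR 4.0.16 (R 4.3.3, limma 3.58.1), with 1 mean per group. SE is the absolute log2 change over the square root of F. Ratios took 0.5 added to each count and exact permutation tests with labels permuted within environments (scipy 1.17.1). The scripts were tested on simulated data. Alternatives, among them DESeq2 1.42.0, other scalings and filters, a depth term, the replicate block and leaving out each library, are given at the end. Summing all deposited rows in the ratios and adjusting over 4 ratios were added after seeing the data. The members, lists and tests were chosen with earlier results of these data known. Every member is named, as are the 4 rows most and least correlated with miR-181a-5p, listed T cell miRNAs past the threshold, miR-150-5p and miR-155-5p. Intervals of log2 changes rest on the spread between libraries as well as on 2614396 to 16312004 counts per library.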

Additional observations from a re-analysis of the deposited data

How the results depend on the processing

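The calls of miR-181a-5p, miR-181a-1-3p and both miR-181b-5p rows between VM and TN cells held under every alternative run, as did that of miR-181a-2-3p in dirty mice. Lower rows numbered 5 in the averaged comparison throughout. In clean mice 4 to 5 rows were called, and without a library 5 to 6 in dirty mice. The replicate block per environment took away the clean call of miR-181a-2-3p (-1.39, adjusted p = 0.0752 in edgeR). The labels do not say whether libraries of the same replicate number belong together. Same-number correlations ran from -0.43 to 0.456 within environments and -0.546 to 0.367 across them. They are of deviations from means of 2 or 3 libraries and carry no test, so they do not decide it. Under the replicate block of 5 pairs, where 0.0625 is the smallest p possible, the log2 ratio of miR-181a-5p to miR-181b-5p differed by -0.296 and that of miR-181a-5p plus miR-181b-5p to the other 5p arms by -1.61. Leaving out each library gave -0.317 to -0.229 and -1.74 to -1.586 for these, 1.038 to 1.514 for miR-181a-1-3p to miR-181a-2-3p, -0.133 to 0.179 for miR-181c-3p to miR-181c-5p and 0.15 to 0.913 for miR-181d-3p to miR-181d-5p. Counts called, 0 as reported, were 1.0 for dirty against clean VM cells and 1.0 for the interaction under DESeq2 and with no filter beyond 1 count. Without a library they were 0.0 to 1.0 in TN cells, 0.0 to 1.0 in VM cells and 0.0 to 2.0 for the interaction. Apart from DESeq2 between environments and in the interaction, the share of all rows called under each alternative is not given here. The counts called under the alternatives are therefore no result about the members. The cause of their changes was not tested.

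Reversed directions were all of values that did not pass. Under library totals they were miR-181d-5p VM minus TN (-0.14 clean, -0.0032 averaged), miR-181c-3p dirty minus clean in TN (-0.1), and the interactions of miR-181a-5p (0.066), miR-181d-5p (0.27) and miR-181d-3p (0.062). The filter of 10 CPM gave -0.067, -0.026 and 0.082 for miR-181d-5p (clean, averaged, interaction) and -0.038 for miR-181c-3p in TN, and left no value for miR-181d-3p. miR-181c-3p in TN was -0.0094 in DESeq2, -0.0092 with its size factors, -0.0028 summed per miRNA and -0.00072 with only the groups compared. miR-181a-5p dirty minus clean in VM was -0.015 in DESeq2, -0.014 with its size factors, -0.024 without a filter and -0.068 summed per miRNA, and miR-181d-5p in dirty mice was -0.015 when summed. The replicate block gave 0.013 for miR-181c-3p averaged and 0.033 for the miR-181d-5p interaction, and the block per environment 0.018, 0.038 and, for the mir-181b-1 row, -0.0075. Leaving out each library in turn moved uncalled values across 0. For miR-181d-5p the VM minus TN change ran from -0.024 to 0.19 in clean mice, -0.093 to 0.1 in dirty mice and -0.011 to 0.12 averaged, and its interaction from -0.17 to 0.065. The averaged change ran from -0.25 to 0.0051 for miR-181c-5p and -0.2 to 0.036 for miR-181c-3p. Dirty minus clean ran from -0.034 to 0.15 for miR-181c-3p in TN and -0.2 to 0.1 for miR-181a-5p in VM cells. The interaction ran from -0.11 to 0.11 and -0.069 to 0.14 for the mir-181b-1 and mir-181b-2 rows and from -1.33 to 0.24 for miR-181d-3p.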
